A study of Mus musculus with 53 samples.

Results

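Most of the 10 noncoding RNAs described here are structural or catalytic parts of RNA-protein particles and nuclear bodies. All 10 were grouped as abundant RNAs, though not all were so in these libraries. The 10 are Rn7sk, Rn7s1, Rn7s2, Rn7s6, Rmrp, Rpph1, Terc, Malat1, Neat1 and Gas5. They were chosen by gene symbol, selected on their kind and on the share of reads that the 7SL RNA genes among them were known to take in these libraries. They are 10 of the 43432 genes listed in both RNA tables. RNA was measured in mouse embryonic fibroblasts (MEFs), connective-tissue cells cultured from embryos, that were ANP32E-KO (KO) or wild type (WT). Anp32e encodes a chaperone that takes the histone variant H2A.Z out of chromatin. In the DAC table the groups were KO DAC (3 libraries), KO DMSO (2), WT DAC (3) and WT DMSO (2), where DAC is not spelled out in the labels and is the usual abbreviation of decitabine, an inhibitor of DNA methyltransferases, and DMSO is the vehicle. In the siRNA table the groups were KO H2AZ siRNA, KO NT siRNA, WT H2AZ siRNA and WT NT siRNA, with 3 libraries each, where NT is the label of the control siRNA. The labels give no dose, treatment time, embryo age, sex or number of KO lines, so the KO group may rest on a single line. The libraries are titled as biological replicates, except that the 3 titles of KO H2AZ siRNA just say replicate. The labels do not say whether they came from separate cultures or embryos, so p-values measure the spread between these libraries, which may be technical. Another 31 samples of the series, which profile chromatin, were not analysed here.

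Several of these RNAs are copied by RNA polymerase III from short genes and carry no poly(A) tail, so they are seen in libraries made from total RNA. Rn7s1, Rn7s2 and Rn7s6 encode 7SL RNA, the scaffold of the signal recognition particle that brings ribosomes to the endoplasmic reticulum, and Rn7sk encodes 7SK RNA, which holds the elongation kinase P-TEFb in an inactive particle. Rpph1 and Rmrp are the RNA parts of RNase P, which trims tRNA precursors, and of RNase MRP, which cuts precursor ribosomal RNA, and Terc is the template RNA of telomerase. Malat1 and Neat1 are long RNAs of RNA polymerase II that stay in the nucleus, at nuclear speckles and as the scaffold of paraspeckles, and Gas5 is the spliced host transcript of a group of small nucleolar RNAs.

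Anp32e was lower in KO than in WT in every condition, at 4.87 to 7.48 FPKM in KO and 14.05 to 17.2 FPKM in WT of the DAC table and at 4.36 to 6.12 RPKM in KO and 16.9 to 21.4 RPKM in WT of the siRNA table. H2afz, an H2A.Z gene, had 26.4 to 30.4 RPKM in KO and 16.6 to 17.5 RPKM in WT with H2AZ siRNA. With NT siRNA it had 184 to 199.4 RPKM in KO and 198.7 to 203 RPKM in WT. H2afv, another H2A.Z gene, had 2.46 to 3.93 RPKM in KO and 1.45 to 1.63 RPKM in WT with H2AZ siRNA. With NT siRNA H2afv had 21.7 to 23.7 RPKM in KO and 15.5 to 19.03 RPKM in WT. More H2A.Z RNA was thus left in KO, and its part in KO over WT with H2AZ siRNA was not tested. Scaling totals ran from 27503472 to 36910532 reads for the DAC libraries and from 31928320 to 47172427 reads for the siRNA libraries. KO and WT cells also differed in sex-linked RNAs: Xist had 0 to 0.00144 RPKM in KO and 4.12 to 6.33 RPKM in WT of the siRNA table, and the Y-linked Ddx3y had 3.08 to 6.73 RPKM in KO and 0 RPKM in all 6 WT libraries. Among the DAC libraries Xist had 28.5 to 44.4 FPKM in KO DAC, 0.579 to 0.923 FPKM in KO DMSO and 136 to 210.1 FPKM in WT. Fibroblast markers were present in all groups. They summed to 1083 to 1309.5 RPKM in the siRNA libraries, and to 1794 to 1980.5 FPKM in KO DAC, 2025 to 2061 FPKM in KO DMSO, 2169 to 2301 FPKM in WT DAC and 3275 to 3398 FPKM in WT DMSO. Of 5 mesothelial markers, 5 reached 1 RPKM in KO and 1 did so in WT of the siRNA table. They summed to 105 to 134 RPKM in KO and 5.97 to 9.33 RPKM in WT there, with Upk1b and Wt1 at 0 in all WT siRNA libraries. Among the DAC libraries they summed to 68.03 to 80.96 FPKM in KO DAC, 613 to 654 FPKM in KO DMSO, 29.5 to 38.5 FPKM in WT DAC and 5.15 to 6.90 FPKM in WT DMSO. In such bulk samples fewer cells of a type and less RNA per cell cannot be told apart. Genotype, sex-linked RNA and these markers cannot be told apart in any KO over WT difference below. In any group of 3 libraries 1 lies outside the closest pair. By the gap between the r of that pair and its own highest r, the 2 farthest out were KO DAC replicate 1 (0.00587) and WT DAC replicate 3 (0.00563) in the DAC table, and WT NT siRNA replicate 1 (0.00136) and KO NT siRNA replicate 1 (0.000773) in the siRNA table. The gap of KO NT siRNA replicate 1 was close to that of KO H2AZ siRNA replicate 3 (0.000644). Each of these pairs was left out together in an alternative that was chosen after seeing the data.

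FPKM and RPKM are fragments or reads per kilobase of gene, scaled to the library total. The values of different genes therefore share a scale within a table. The members run from 271 bases (Rmrp) to 20771 bases (Neat1) in length. How far length affects the values was not tested, so the orders below are of values and not of RNA amount. In the siRNA table the order of the median levels was Rn7s1 (237214 RPKM), Rn7s2 (237131 RPKM), Rn7s6 (100224 RPKM), Rn7sk (65677 RPKM), Rpph1 (30744 RPKM), Rmrp (4648 RPKM), Malat1 (191 RPKM), Gas5 (31.2 RPKM), Terc (13.3 RPKM) and Neat1 (2.02 RPKM). Among these neighbours, Rn7s1 and Rn7s2 overlapped fully, and the ranges of Rn7s6 (77217 to 120202 RPKM) and Rn7sk (45949 to 88744 RPKM) overlapped. The order in the DAC table was Rn7sk (75584 FPKM), Rn7s1 (23042 FPKM), Rn7s2 (22803 FPKM), Rpph1 (4783 FPKM), Rn7s6 (1313 FPKM), Malat1 (1071 FPKM), Neat1 (38.2 FPKM), Gas5 (5.70 FPKM), Terc (4.74 FPKM) and Rmrp, which was listed at 0 in 9 of the 10 libraries. There Rn7s6 and Malat1 overlapped (891 to 1403 and 846 to 1413 FPKM), as did Gas5 and Terc. Of the 10 members, 10 passed the filter on low values in the siRNA table and 9 in the DAC table.

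The orders differed between the tables, which were normalised separately, so no test was made across them. The ranges of Rn7sk overlapped. The 7SL genes, Rpph1, Gas5 and Terc had higher values in every siRNA library than in any DAC library, and Malat1 and Neat1 had lower ones. Rmrp had 36334 to 71074 reads in each siRNA library, whereas in the DAC table it had 4 reads in KO DMSO replicate 2 and none elsewhere. Other noncoding RNAs made by polymerase III or without a poly(A) tail went both ways. Of 16 listed, 7 had higher values in every siRNA library than in any DAC library, 1 had lower ones, 5 overlapped and 3 were at 0 in all libraries. The Y RNA Rny1 had 651 to 1608 reads per siRNA library and 0 to 8 per DAC library, and Rny3 had 911 to 2212 reads per siRNA library and 0 to 4 per DAC library. Rnu3b1, a U3 small nucleolar RNA, was the lower one, with 7845 to 16557 reads per siRNA library and 32258 to 63892 per DAC library. The mitochondrial ribosomal RNAs mt-Rnr1 and mt-Rnr2 made up 0.907 to 1.35% of the scaling total in the siRNA table and 0.000726 to 0.00385% in the DAC table. The labels give the same library kit for both tables, and the part of library preparation or counting in these differences was not tested.

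**Figure D1:**
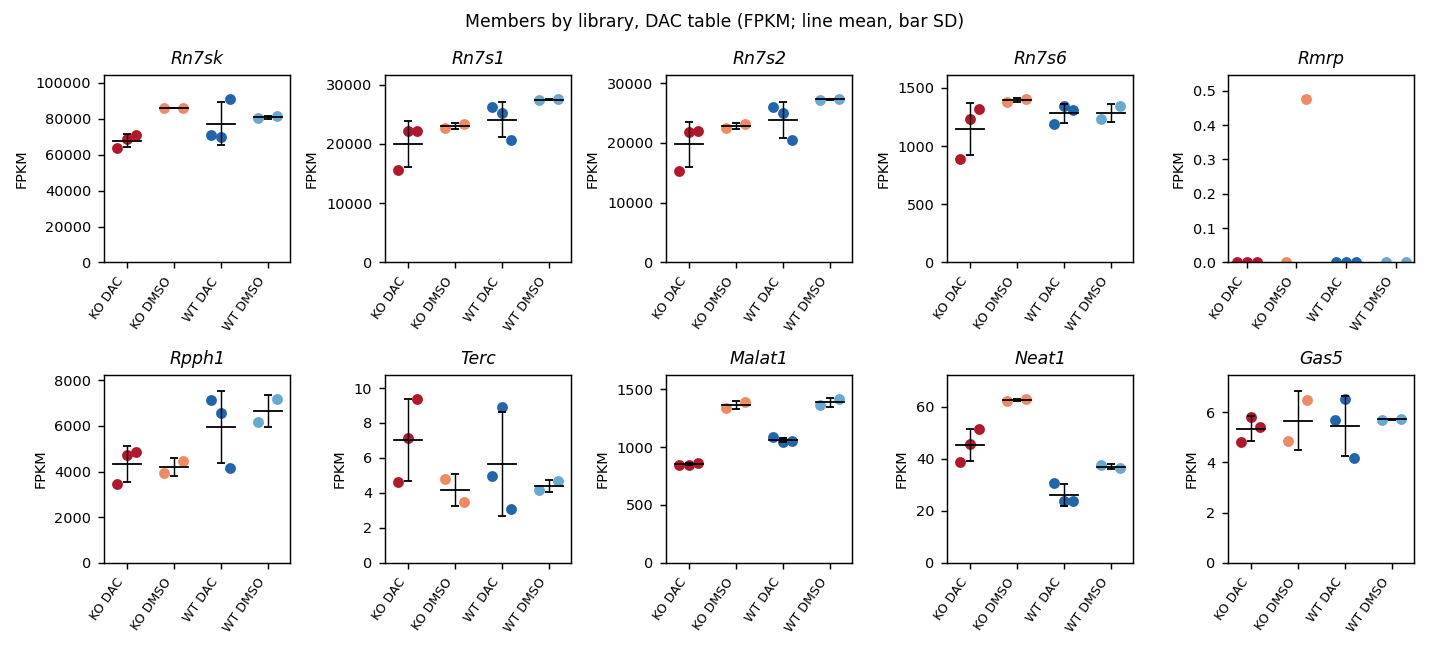
Level of each of the 10 members in the 10 libraries of the DAC table, in FPKM on linear axes that start at 0, by group (KO DAC, KO DMSO, WT DAC, WT DMSO). Points are libraries, lines are group means and bars are SD; Rmrp, listed at 0 in 9 of 10 libraries, has points only. Malat1 is lower in both DAC groups and Neat1 is higher in both KO groups.

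**Figure D2:**
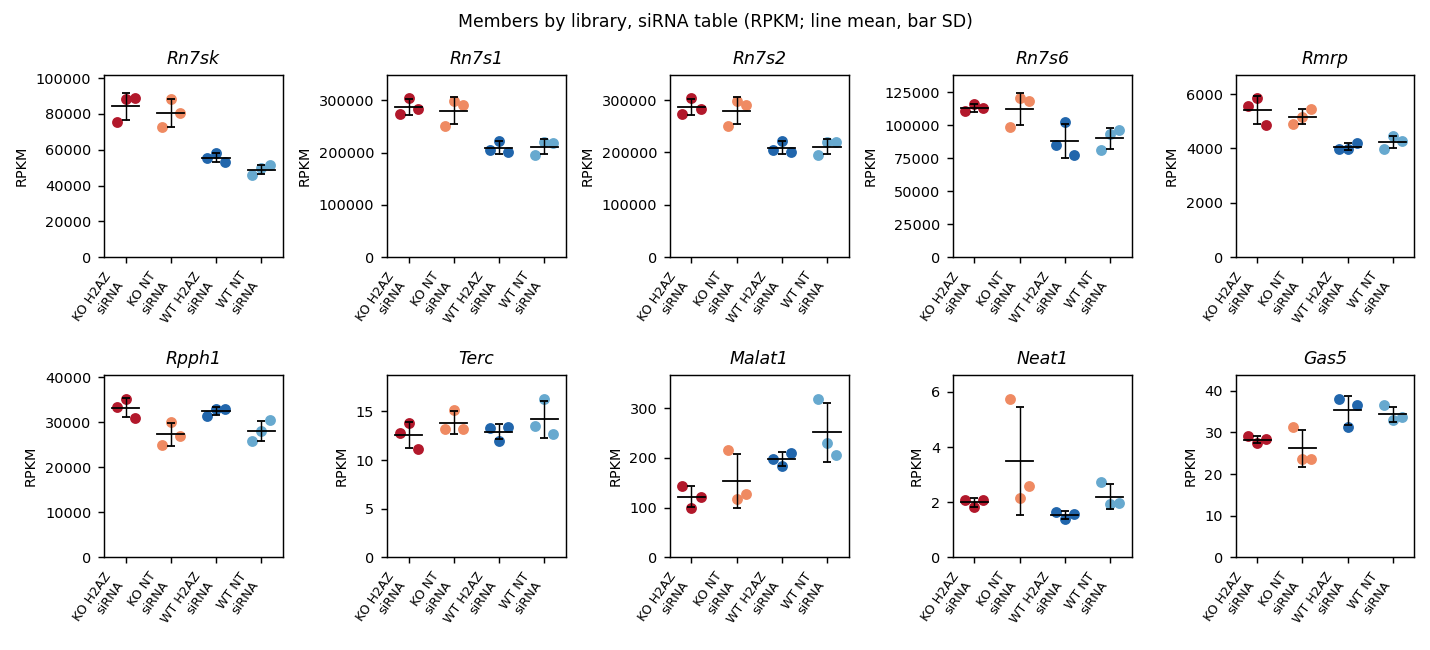
Level of each of the 10 members in the 12 libraries of the siRNA table, in RPKM on linear axes that start at 0, by group (KO H2AZ siRNA, KO NT siRNA, WT H2AZ siRNA, WT NT siRNA). Points are libraries, lines are group means and bars are SD (n = 3); Rn7sk, the 7SL genes and Rmrp lie higher in KO, and Malat1 and Gas5 lower.

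Whole reads could be recovered from the steps of the deposited values, and the reads of all listed genes summed to at least 99.9993% of the divisor that scales each siRNA library and 99.9987% of that of each DAC library, so the reads of the members are part of that divisor. Their share of it is given as a description, since it was known when the members were chosen. In the siRNA table the 10 members together took 23.4, 25.9 and 24.5% of the scaling total in KO H2AZ siRNA and 17.9, 19.6 and 17.3% in WT H2AZ siRNA. The shares were 21.5, 25.6 and 24.6% in KO NT siRNA and 16.8, 18.7 and 18.9% in WT NT siRNA. All 6 KO libraries lay above all 6 WT libraries. Shares in the DAC table were 3.85, 4.47 and 4.57% in KO DAC and 5.42 and 5.52% in KO DMSO, against 5.002, 4.84 and 5.20% in WT DAC and 5.55 and 5.67% in WT DMSO, and the lowest was KO DAC replicate 1.

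The 7SL genes made up most of the share in the siRNA table and a smaller part of it in the DAC table. Rn7s1, Rn7s2 and Rn7s6 summed to 19.6 to 21.6% in KO H2AZ siRNA, 17.95 to 21.4% in KO NT siRNA, 14.3 to 16.3% in WT H2AZ siRNA and 14.1 to 15.9% in WT NT siRNA. Rn7sk took 2.50 to 2.94% in KO H2AZ siRNA, 2.41 to 2.92% in KO NT siRNA, 1.76 to 1.93% in WT H2AZ siRNA and 1.52 to 1.70% in WT NT siRNA. Rn7sk alone took 2.11 to 3.01% of the DAC totals and the 7SL genes 0.953 to 1.69%. Malat1, Neat1 and Gas5 together took 0.674 to 1.10% of the DAC totals and 0.0839 to 0.242% of the siRNA totals. With Rn7s2 left out, because its reads nearly equalled those of Rn7s1, the members took 11.6 to 18.5% in the siRNA table and 3.40 to 4.89% in the DAC table.

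**Figure D3:**
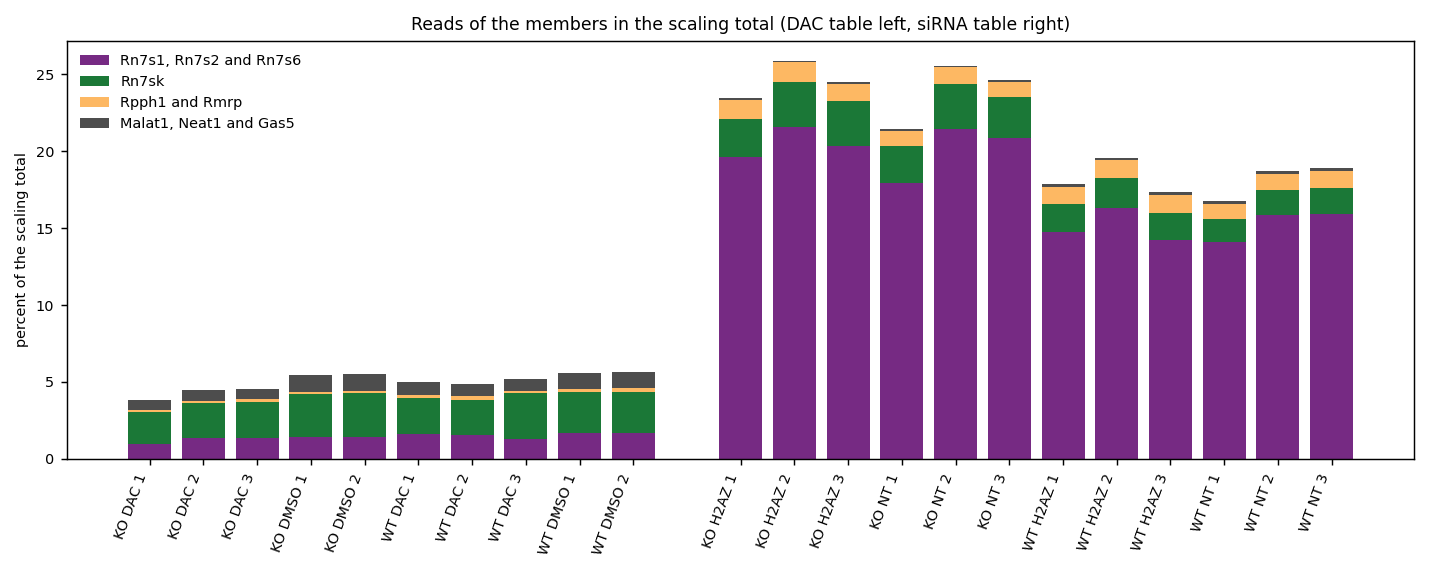
Share of the scaling total of each library, in percent on a linear axis, taken by the 7SL genes, Rn7sk, Rpph1 with Rmrp, and Malat1, Neat1 and Gas5; Terc is too small to draw. Stacked bars are single libraries, DAC table on the left and siRNA table on the right; the KO siRNA bars reach 21.5 to 25.9% and the WT siRNA bars 16.8 to 19.6%.

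Because each value is divided by that total, a larger share of the members lowers the value of every other gene by arithmetic. Leaving out the reads of the 10 members would raise every other gene by 0.106 on the log2 scale in KO over WT with NT siRNA and by 0.117 with H2AZ siRNA. The 7SL genes alone accounted for 0.084 of this with NT siRNA and 0.095 with H2AZ siRNA, Rn7s2 alone for 0.032 and 0.036, and Rn7sk alone for 0.015 and 0.014. The same shift was 0.013 for H2AZ siRNA over NT siRNA in KO and 0.002 in WT, and in the DAC table it lay between -0.018 (DAC over DMSO in KO) and -0.002 (KO over WT in DMSO).

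In KO over WT of the siRNA table the median of all tested genes was -0.01 with NT siRNA and -0.03 with H2AZ siRNA when the total was free of the members, and -0.10 and -0.12 with the deposited total, over the same 12668 genes. Of these, with NT siRNA 3917 were called higher and 4154 lower in KO with the total free of the members, against 3004 higher and 5122 lower with the deposited total. Of the genes called lower with the deposited total, 968 were no longer called and 0 turned round, while 913 further genes were called higher. With H2AZ siRNA the counts were 3625 higher and 4249 lower without the members, against 2563 and 5409 as deposited. The share of calls that were higher in KO was 48.5% without the members and 37.0% as deposited with NT siRNA, and 46.0% and 32.1% with H2AZ siRNA. For H2AZ siRNA over NT siRNA in KO it was 30.3% and 25.7%, and in the DAC table the widest move was in KO over WT in DAC, with 46.5% and 49.0%. Centring each library on its median gene largely removes the median difference between groups by construction. A near-even split of calls follows from that method and is not a result about the cells. It gave 4028 higher and 4127 lower in KO over WT with NT siRNA and 4037 higher and 3924 lower with H2AZ siRNA. For H2AZ siRNA over NT siRNA it gave 1709 higher and 1686 lower in KO and 1063 higher and 1184 lower in WT. With the deposited total the counts for H2AZ siRNA over NT siRNA were 831 higher and 2404 lower in KO and 618 higher and 1315 lower in WT.

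**Figure D4:**
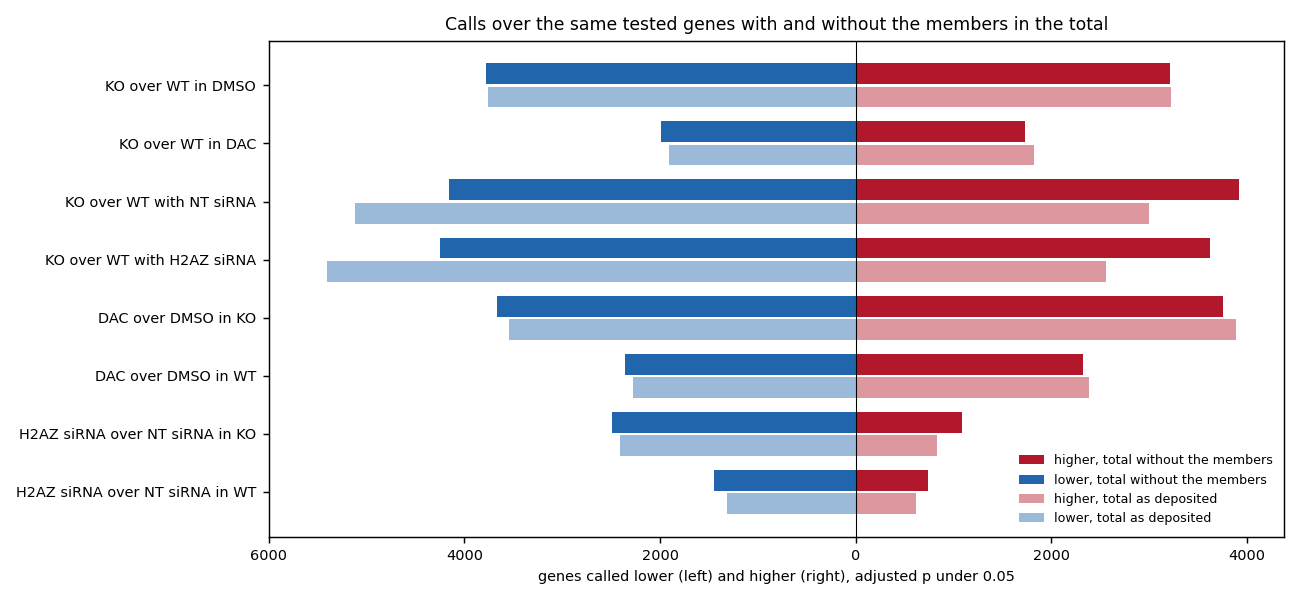
Genes called higher (right of 0) and lower (left of 0) at an adjusted p under 0.05 in 8 comparisons, over the same tested genes, with the members' reads taken out of the scaling total (dark bars) and as deposited (pale bars). In KO over WT of the siRNA table the lower calls shrink to 4154 and 4249 and the higher calls grow to 3917 and 3625.

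Differences between groups were tested with limma on log2(value + 1), all genes of a table in a single fit. A difference counts as called when its p, adjusted by Benjamini-Hochberg, was under 0.05. A fold change on this scale understates the change of low genes. Rn7s1 and Rn7s2 differed by 0.00822 to 0.0413% of their reads in the siRNA libraries, less than the counting error of independent reads in each of them, and by 0.781 to 1.09% in the DAC libraries, where the difference of 1435 to 2618 reads exceeded its counting SD of 534 to 720.0 reads. As near-identical copies they were counted as 1 readout in both tables, which leaves 9 readouts (8 in the DAC table, where Rmrp was too low to test).

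In the siRNA table, in KO over WT with NT siRNA, 2 of the 7 tested readouts were called higher (all genes: 23.7% called higher) and 2 lower (40.4% of all genes). With H2AZ siRNA the counts were again 2 higher (20.2% of all genes) and 2 lower (42.7%). The 7SL genes are left out of these counts because their KO and WT shares were known beforehand. The other members were also chosen with earlier results of these data known, so their p-values do not rest on an independent choice. For H2AZ siRNA over NT siRNA, 1 of 9 readouts was called higher in KO (6.56% of all genes) and 0 lower (19.0%), and in WT 0 were called in either direction (4.88% of all genes higher, 10.4% lower). There limma gave 1 readout, Rpph1, an unadjusted p under 0.05, and limma-voom on the recovered reads called 0. In the DAC table, KO over WT in DMSO had 1 of 8 readouts higher (19.6% of all genes) and 0 lower (22.9%), and KO over WT in DAC had 1 higher (11.1%) and 1 lower (11.6%). DAC over DMSO had 2 of 8 lower and 0 higher in KO (21.6% of all genes lower, 23.7% higher) and likewise 2 lower and 0 higher in WT (13.8% lower, 14.5% higher). No readout was called for the difference between the treatment effects in KO and WT, neither for DAC (12.4% of all genes higher, 11.7% lower) nor for H2AZ siRNA (0.00789% of all genes higher, 0.0% lower). At an unadjusted p under 0.05 limma gave 1 readout for DAC and 0 for H2AZ siRNA, and limma-voom called 1 and 0. Set against those shares of all genes, the counts are not a result about the members as a group, and the single RNAs are described in turn.

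**Figure D5:**
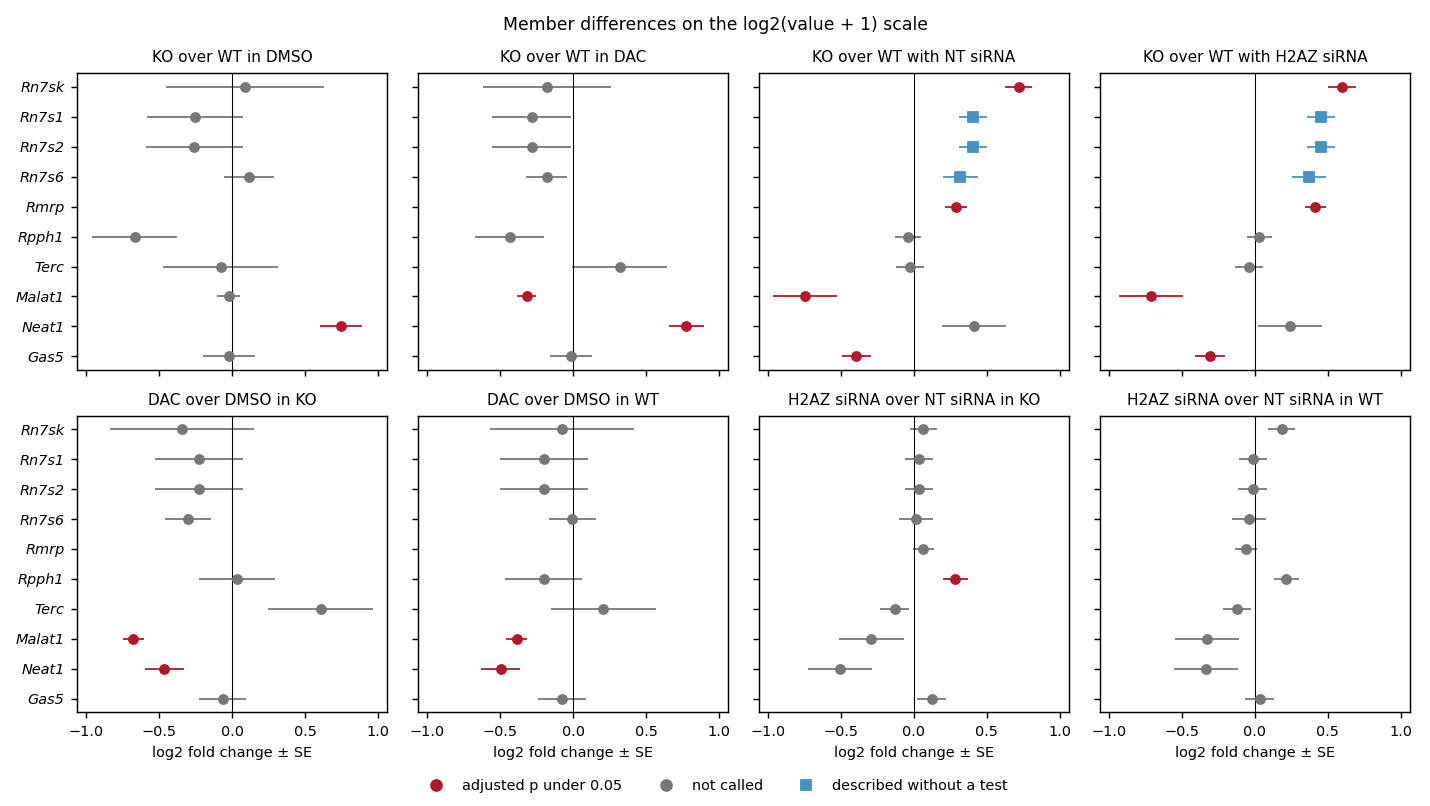
Log2 fold change of each member on the log2(value + 1) scale in 8 comparisons, with SE as horizontal bars. Red points passed an adjusted p under 0.05, grey points did not, and blue squares are 7SL genes described without a test; Rmrp was not tested in the DAC table.

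The 7SL genes were higher in KO than in WT in the siRNA table, given here as a description. Rn7s1, on chromosome 12 (ENSMUSG00000099021, 69159295 to 69159593, mm10), had 251505, 299093 and 290103 RPKM in KO NT siRNA, against 195869, 219290 and 219123 RPKM in WT NT siRNA. It had 273384, 303642 and 283779 RPKM in KO H2AZ siRNA, against 205012, 222924 and 200107 RPKM in WT H2AZ siRNA. The groups did not overlap, with differences of 0.40 (SE 0.10) and 0.46 (SE 0.10) on the log2 scale. Rn7s2, on chromosome 12 (ENSMUSG00000099250, 69361183 to 69361481, mm10), gave the same picture at 195819 to 303534 RPKM over all siRNA libraries. Rn7s6 (ENSMUSG00000092746), named here without a position, averaged 112317 ± 12079.5 RPKM in KO NT siRNA and 89948 ± 8105 RPKM in WT NT siRNA, and 113144 ± 2967 RPKM in KO H2AZ siRNA and 88009 ± 12723 RPKM in WT H2AZ siRNA (SD, n = 3 each). H2AZ siRNA over NT siRNA gave Rn7s1 0.04 in KO and -0.01 in WT, and no 7SL gene was called there.

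Among the DAC libraries the 7SL genes took a smaller share and Rn7s1 did not lie higher in KO. Rn7s1 had 22674 and 23410.5 FPKM in KO DMSO, against 27403 and 27566 FPKM in WT DMSO, where the groups did not overlap and the difference was not called (log2 fold change -0.25, SE 0.33, adjusted p = 0.575). It had 15525, 22145 and 22179 FPKM in KO DAC and 26209, 25251 and 20708 FPKM in WT DAC, with KO DAC replicate 1 and WT DAC replicate 3 the lowest of their groups. Rn7s6 had 1379 and 1403 FPKM in KO DMSO and 1230.3 and 1340.4 FPKM in WT DMSO, and 891, 1229 and 1316 FPKM in KO DAC and 1189, 1347 and 1310.2 FPKM in WT DAC. No 7SL gene was called in any comparison of this table. The reads of Rn7s6 were 0.371 to 0.444 times those of Rn7s1 in the siRNA libraries and 0.0435 to 0.0614 times in the DAC libraries, so the copies did not keep the same ratio between tables. 7SL sequences have many near-identical copies in the genome, and how reads that fit several places were counted is not given in the sources used here, so the level of each copy is uncertain.

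The protein genes of the signal recognition particle and its receptor were mostly lower in KO of the siRNA table, where 7SL RNA was higher. Of 9 tested, 8 were called lower with NT siRNA (40.4% of all genes; median -0.29, all genes -0.10), and 7 lower with H2AZ siRNA (42.7% of all genes; median -0.32, all genes -0.12). With the members out of the total, 5 of 9 were lower with either siRNA. With that total 4154 of all 12668 genes were lower with NT siRNA and 4249 with H2AZ siRNA. Srp54a, a copy of the gene for the subunit that binds signal peptides, averaged 57.2 RPKM in KO NT siRNA and 127 RPKM in WT NT siRNA (log2 fold change -1.13, adjusted p = 4.78e-07), and its near-identical neighbour Srp54c averaged 46.4 RPKM in KO NT siRNA and 101 RPKM in WT NT siRNA, so reads may be split between them. In KO over WT of the DAC table none of the 9 was called by limma, in DMSO or in DAC, nor did any reach an unadjusted p under 0.05. Over all genes 19.6% were called higher and 22.9% lower in DMSO, and 11.1% and 11.6% in DAC. With DAC 1 of 9, Srp72, a subunit that binds 7SL RNA, was called higher in each genotype, at 18.99 FPKM in KO DAC and 14.1 FPKM in KO DMSO (log2 fold change 0.40, adjusted p = 0.00338) and at 20.7 FPKM in WT DAC and 15.5 FPKM in WT DMSO (log2 fold change 0.39, adjusted p = 0.00703). Over all genes 23.7% rose with DAC in KO and 14.5% in WT.

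Rn7sk rose in KO with either siRNA. The gene lies on chromosome 9 (ENSMUSG00000065037, 78175302 to 78175633, mm10) and had 72947, 88284 and 80629 RPKM in KO NT siRNA, against 45949, 49597 and 51231 RPKM in WT NT siRNA (log2 fold change 0.72, SE 0.09, adjusted p = 4.92e-05). With H2AZ siRNA it had 75549.7, 88561 and 88744 RPKM in KO, against 55139, 58406 and 53172 RPKM in WT (log2 fold change 0.60, SE 0.09, adjusted p = 0.00019). All KO libraries lay above all WT libraries, and the calls ended only when genes below the filter on low values were added to the fit (adjusted p = 0.0718 and 0.138). H2AZ siRNA over NT siRNA gave 0.06 in KO and 0.18 in WT, neither called.

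With DMSO Rn7sk had 85708 and 85802 FPKM in KO DMSO, against 80160.1 and 81317 FPKM in WT DMSO, groups that did not overlap but differed by 0.09 on the log2 scale. KO DAC libraries had 63726, 68703 and 70844 FPKM and WT DAC libraries 71008, 69639 and 90829 FPKM, where WT DAC replicate 3 stood above the other two. DAC over DMSO in KO was not called (log2 fold change -0.34, SE 0.49, adjusted p = 0.609). Its SE came from the trend that limma fits across abundance, in which Rn7sk is near the top end. Without that trend the same difference was called (adjusted p = 0.041), as it was with limma-voom on the recovered reads (adjusted p = 0.00861).

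Among the proteins of the 7SK particle and P-TEFb, 1 of 6 tested genes was called higher and 3 lower in KO over WT with either siRNA (medians -0.10 and -0.09). With the members out of the total the counts were 2 and 2 with NT siRNA and 3 higher and 2 lower with H2AZ siRNA. Of all 12668 genes, 3917 were then higher and 4154 lower with NT siRNA, and 3625 and 4249 with H2AZ siRNA. Over all genes, with the deposited total, 23.7% were called higher and 40.4% lower with NT siRNA, and 20.2% and 42.7% with H2AZ siRNA. Mepce, which caps and holds 7SK RNA, averaged 9.28 RPKM in KO NT siRNA and 7.42 RPKM in WT NT siRNA (log2 fold change 0.29, adjusted p = 0.000496). Larp7, which binds the end of 7SK RNA and stabilises it, averaged 29.3 RPKM in KO NT siRNA and 39.9 RPKM in WT NT siRNA (log2 fold change -0.43, adjusted p = 0.000137). Larp7 was also lower in KO DMSO than in WT DMSO (log2 fold change -0.37, adjusted p = 0.00908). Ccnt2, a cyclin of P-TEFb, was lower with DAC in KO (log2 fold change -0.38, adjusted p = 0.00116) and in WT (log2 fold change -0.34, adjusted p = 0.00427).

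Rmrp, on chromosome 4 (ENSMUSG00000088088, 43492785 to 43493059, mm10), also rose in KO with either siRNA. It had 4891, 5166 and 5463 RPKM in KO NT siRNA, against 3976, 4443 and 4284 RPKM in WT NT siRNA (log2 fold change 0.29, SE 0.07, adjusted p = 0.00486). With H2AZ siRNA it had 5578, 5843 and 4854 RPKM in KO, against 3986, 3988 and 4199 RPKM in WT (log2 fold change 0.41, SE 0.07, adjusted p = 0.000472). The groups did not overlap in either case, and the differences stayed called in the alternatives run. H2AZ siRNA over NT siRNA gave 0.07 in KO and -0.06 in WT, neither called.

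Rpph1, which shares most of its protein partners with Rmrp, was not called in KO over WT with either siRNA. On chromosome 14 (ENSMUSG00000092837, 50807447 to 50807771, mm10), it had 24937, 30073 and 27013 RPKM in KO NT siRNA and 25814, 28033 and 30444 RPKM in WT NT siRNA, ranges that overlapped (log2 fold change -0.04, SE 0.09, adjusted p = 0.702). With H2AZ siRNA it had 33421, 35298 and 31044 RPKM in KO and 31543, 33083 and 32990.1 RPKM in WT, and the H2AZ siRNA libraries lay above the NT siRNA libraries in both genotypes. The difference was called in KO (log2 fold change 0.28, SE 0.09, adjusted p = 0.0317) and not in WT (log2 fold change 0.21, SE 0.09, adjusted p = 0.116), and the difference between the effects was not called (log2 fold change 0.07, SE 0.12, adjusted p = 0.916). The call in KO was lost at a fold change no smaller with the members out of the total (0.30, adjusted p = 0.0649) and when all genes entered the fit (0.28, adjusted p = 0.47), where the SE was larger. It was also lost without each of 4 single libraries: KO NT siRNA replicate 1 or 3, or KO H2AZ siRNA replicate 1 or 2 (log2 fold change 0.22 to 0.28, adjusted p of 0.0828 to 0.119).

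Rpph1 was lower in KO DMSO, at 3918 and 4471 FPKM, than in WT DMSO, at 6176 and 7164 FPKM, without overlap and without a call (log2 fold change -0.67, SE 0.29, adjusted p = 0.0954), but it was called with limma-voom on the recovered reads (adjusted p = 0.0192). KO DAC libraries had 3433, 4731 and 4835 FPKM and WT DAC libraries 7121, 6553 and 4156 FPKM, again with KO DAC replicate 1 and WT DAC replicate 3 lowest. Leaving out WT DAC replicate 3 alone brought KO over WT past the threshold in DMSO (adjusted p = 0.0265) and in DAC (-0.67, adjusted p = 0.0327), as did leaving out KO DAC replicate 1 with it (adjusted p = 0.00234 in DMSO and 0.0172 in DAC).

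Of the 11 proteins of RNase P and MRP tested in the siRNA table, 5 were called higher and 5 lower in KO over WT with NT siRNA (median -0.11), and 3 higher and 5 lower with H2AZ siRNA, so the calls went both ways. Over all genes 23.7% were called higher and 40.4% lower with NT siRNA, and 20.2% and 42.7% with H2AZ siRNA. Rpp25, a subunit that binds the RNA, averaged 4.17 RPKM in KO NT siRNA and 0.337 RPKM in WT NT siRNA (log2 fold change 1.95, adjusted p = 5.08e-09). It was also higher in KO DMSO, at 19.6 FPKM, than in WT DMSO, at 0.953 FPKM (log2 fold change 3.41, adjusted p = 3.73e-05), and fell with DAC in KO to 3.78 FPKM (log2 fold change -2.13, adjusted p = 0.000362). Rpp38 and Pop4, further protein subunits, were lower in KO. Rpp38 had 3.88 RPKM in KO NT siRNA and 7.51 RPKM in WT NT siRNA (log2 fold change -0.82, adjusted p = 6.99e-05). Pop4 had 18.7 RPKM in KO NT siRNA and 32.1 RPKM in WT NT siRNA (log2 fold change -0.75, adjusted p = 1.27e-06).

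Terc, on chromosome 3 (ENSMUSG00000064796, 96414437 to 96414833, mm10), was low in both tables and no difference was called. It had 13.2, 15.2 and 13.2 RPKM in KO NT siRNA and 13.6, 16.3 and 12.7 RPKM in WT NT siRNA, and 12.8, 13.8 and 11.1 RPKM in KO H2AZ siRNA and 13.3, 12.0001 and 13.4 RPKM in WT H2AZ siRNA. Among the DAC libraries it had 4.62, 7.11 and 9.35 FPKM in KO DAC, 4.81 and 3.50 FPKM in KO DMSO, 4.97, 8.93 and 3.10 FPKM in WT DAC and 4.16 and 4.66 FPKM in WT DMSO, which rest on 42 to 146 reads per library. DAC over DMSO in KO, at 0.61 (SE 0.36), was called only when WT DAC replicate 3 and KO DAC replicate 1 were left out together (adjusted p = 0.0323). Of the telomerase proteins, 5 of 8 rose with DAC in WT (median 0.33, all genes -0.01; 14.5% of all genes rose). In KO 3 rose and 2 fell, near the shares of all genes (23.7% and 21.6%). Dkc1, the pseudouridine synthase that binds Terc, had 9.34 FPKM in KO DAC and 5.02 FPKM in KO DMSO (log2 fold change 0.78, adjusted p = 0.00025) and 8.59 FPKM in WT DAC and 5.43 FPKM in WT DMSO (log2 fold change 0.58, adjusted p = 0.00279). Tert, the reverse transcriptase, had 3.31 FPKM in KO DMSO and 1.62 FPKM in WT DMSO (log2 fold change 0.72, adjusted p = 0.00256) and fell with DAC in KO (log2 fold change -0.66, adjusted p = 0.00234).

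The promoters of Malat1 and Gas5 are shown because those of the other members were not found among the sequences available. Both RNAs were lower in KO with either siRNA. Decitabine acts on methylation of the CG dinucleotide, so every CG is marked, but Gas5 was not called in any comparison of the DAC table. Methylation of these windows was not examined here. The sequences are RefSeq's for GRCm38.p6, the mm10 assembly. Each window runs from 250 bases before the annotated start to 50 after it, 5′ to 3′ on the strand of the gene, and capitals mark every CG.
Malat1, chr19:5802623-5802922, minus strand: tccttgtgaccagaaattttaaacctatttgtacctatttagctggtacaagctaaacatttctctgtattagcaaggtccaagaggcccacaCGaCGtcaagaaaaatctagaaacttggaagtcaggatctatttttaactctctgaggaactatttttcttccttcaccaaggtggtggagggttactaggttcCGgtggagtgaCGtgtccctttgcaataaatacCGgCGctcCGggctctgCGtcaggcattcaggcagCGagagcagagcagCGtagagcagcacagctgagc
Gas5, chr1:161034916-161035215, plus strand: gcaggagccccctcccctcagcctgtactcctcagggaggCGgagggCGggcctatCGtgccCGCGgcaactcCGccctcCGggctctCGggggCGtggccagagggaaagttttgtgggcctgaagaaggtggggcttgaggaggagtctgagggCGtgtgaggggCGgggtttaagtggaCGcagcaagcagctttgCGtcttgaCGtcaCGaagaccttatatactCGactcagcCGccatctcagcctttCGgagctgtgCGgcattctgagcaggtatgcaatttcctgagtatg
The Malat1 window held 10 CG and the Gas5 window 19, against a median of 7 over all 32851 promoter windows, of which 94.6% held at least 1. Another annotated Gas5 start, further upstream, had 33 CG in its window. The Gas5 window printed also held TATAA, searched on both strands, and the palindrome TGACGTCA, a cyclic AMP response element, motifs that 24.9% and 1.79% of all windows held. Neither was found in the Malat1 window. A match of letters is a description and not a site of binding.

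Malat1 fell with DAC in both genotypes. The gene lies on chromosome 19 (ENSMUSG00000092341, 5795690 to 5802672, mm10) and had 846, 847 and 862 FPKM in KO DAC, against 1337 and 1389 FPKM in KO DMSO (log2 fold change -0.68, SE 0.07, adjusted p = 8.72e-05). In WT it had 1085, 1043 and 1056 FPKM with DAC, against 1360.4 and 1413 FPKM with DMSO (log2 fold change -0.39, SE 0.07, adjusted p = 0.00419). The groups were tight and did not overlap. The DAC effect in KO minus that in WT was -0.29 on the log2 scale (SE 0.10), which was not called (adjusted p = 0.0681) but passed the threshold with limma-voom on the reads (adjusted p = 0.0082), without the abundance trend (adjusted p = 0.0291) and without KO DAC replicate 1 and WT DAC replicate 3 together (adjusted p = 0.0179). The fibroblast and mesothelial markers given above also differed between DAC and DMSO in both genotypes, and their part in these differences and in those of Neat1 was not tested. KO over WT was -0.02 in DMSO, not called, and -0.32 in DAC (SE 0.06, adjusted p = 0.00817).

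In the siRNA table Malat1 was lower in KO with either siRNA. It had 215, 117 and 128 RPKM in KO NT siRNA, against 319, 230.1 and 206 RPKM in WT NT siRNA (log2 fold change -0.74, SE 0.22, adjusted p = 0.0111). With H2AZ siRNA it had 143, 100.1 and 122 RPKM in KO, against 199, 184 and 211 RPKM in WT (log2 fold change -0.71, SE 0.22, adjusted p = 0.0145). With NT siRNA the groups overlapped, since KO NT siRNA replicate 1 exceeded WT NT siRNA replicate 3. Replicate 1 was the highest of both NT groups, and these are the libraries farthest from their groups. Without both of them the difference was -0.83 (adjusted p = 0.00065), and without WT NT siRNA replicate 1 alone it was -0.56 (adjusted p = 0.0524). With H2AZ siRNA the call was lost without KO H2AZ siRNA replicate 2 (adjusted p = 0.0626) and when all genes entered the fit (adjusted p = 0.0511).

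Proteins of nuclear speckles, where Malat1 RNA collects, had 6 of 11 genes called lower in KO over WT with NT siRNA (median -0.28) and 5 lower with H2AZ siRNA (median -0.26). These counts are not far from the shares of all genes called lower (40.4% and 42.7%). With the members out of the total the same numbers were lower and 1 was higher. Of all 12668 genes, 4154 were then lower and 3917 higher with NT siRNA, and 4249 and 3625 with H2AZ siRNA. Srsf3, a splicing factor, had 39.3 RPKM in KO NT siRNA and 56.6 RPKM in WT NT siRNA (log2 fold change -0.53, adjusted p = 0.000292). Pnn, a splicing-associated protein, had 11.3 RPKM in KO NT siRNA and 18.7 RPKM in WT NT siRNA (log2 fold change -0.69, adjusted p = 0.000357). In KO over WT in DMSO 5 of 11 were called higher (19.6% of all genes), led by Srsf1 (log2 fold change 0.37, adjusted p = 0.00285). With DAC 2 rose and 2 fell in KO (23.7% and 21.6% of all genes). In WT limma called none (14.5% of all genes rose and 13.8% fell), and 2 had an unadjusted p under 0.05.

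Neat1 was higher in KO of the DAC table and fell with DAC in both genotypes. The gene lies next to Malat1 on chromosome 19 (ENSMUSG00000092274, 5824708 to 5845480, mm10) and had 62.2 and 62.8 FPKM in KO DMSO, against 37.5 and 36.3 FPKM in WT DMSO (log2 fold change 0.75, SE 0.15, adjusted p = 0.00342). With DAC it had 38.9, 45.5 and 51.4 FPKM in KO, against 30.8, 23.8 and 23.6 FPKM in WT (log2 fold change 0.77, SE 0.12, adjusted p = 0.0023). All KO libraries lay above all WT libraries, and these calls held in every alternative run. DAC over DMSO was called in KO (log2 fold change -0.46, SE 0.13, adjusted p = 0.0205) and in WT (log2 fold change -0.49, SE 0.13, adjusted p = 0.0249), with no overlap. These smaller differences lost their calls with the replicate number as a block (adjusted p = 0.0512 and 0.0649) and without either DMSO library of the genotype (adjusted p of 0.0854 and 0.0917 in KO, and 0.104 and 0.117 in WT). The fall in WT was also not called without WT DAC replicate 2 or 3 (adjusted p = 0.0746 and 0.0588).

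In the siRNA table Neat1 was low, at 5.76, 2.14 and 2.60 RPKM in KO NT siRNA and 2.72, 1.93 and 1.96 RPKM in WT NT siRNA, and 2.10, 1.81 and 2.07 RPKM in KO H2AZ siRNA and 1.64, 1.39 and 1.57 RPKM in WT H2AZ siRNA. KO NT siRNA replicate 1 stood far above the rest. The H2AZ siRNA libraries lay below the NT siRNA libraries in both genotypes without a call (-0.50, adjusted p = 0.116 in KO; -0.33, adjusted p = 0.347 in WT). Between KO and WT the difference was 0.41 under NT siRNA (adjusted p = 0.12) and 0.24 under H2AZ siRNA (adjusted p = 0.362). It was called with NT siRNA under median centring (adjusted p = 0.0409) and without KO NT siRNA replicate 2 (adjusted p = 0.023), and with H2AZ siRNA without replicate 1 of both NT groups (adjusted p = 0.0133). H2AZ siRNA over NT siRNA was called in KO without KO NT siRNA replicate 2 (adjusted p = 0.0301) and in WT without KO NT siRNA replicate 1 (adjusted p = 0.042).

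The paraspeckle proteins, which assemble on Neat1 RNA, had calls both ways. Of 12, 2 were higher (19.6% of all genes) and 4 lower (22.9%) in KO DMSO than in WT DMSO. In KO DAC 5 were higher than in WT DAC (11.1% of all genes), or 3 with the members out of the total (1731 of all 16435 genes). Tardbp, an RNA-binding protein, averaged 20.5 FPKM in KO DMSO and 14.7 FPKM in WT DMSO (log2 fold change 0.45, adjusted p = 0.00121), but 14.4 RPKM in KO NT siRNA and 22.8 RPKM in WT NT siRNA (log2 fold change -0.63, adjusted p = 0.000101). Pspc1, a core paraspeckle protein, fell with DAC in KO to 6.52 FPKM, against 9.38 FPKM in KO DMSO (log2 fold change -0.47, adjusted p = 0.000504). Dazap1, another RNA-binding protein, was lower with H2AZ siRNA than with NT siRNA in KO (log2 fold change -0.71, adjusted p = 1.34e-05) and in WT (log2 fold change -0.76, adjusted p = 8.26e-06).

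Gas5, on chromosome 1 (ENSMUSG00000053332, 161034601 to 161038539, mm10), fell in KO with either siRNA. It had 31.2, 23.6 and 23.6 RPKM in KO NT siRNA, against 36.4, 33.03 and 33.6 RPKM in WT NT siRNA (log2 fold change -0.39, SE 0.10, adjusted p = 0.00494). With H2AZ siRNA it had 29.01, 27.4 and 28.4 RPKM in KO, against 38.1, 31.3 and 36.5 RPKM in WT (log2 fold change -0.31, SE 0.10, adjusted p = 0.0199). The groups did not overlap. With the members out of the total the difference under NT siRNA was -0.29 (adjusted p = 0.0108). Under H2AZ siRNA it was -0.19 and no longer called (adjusted p = 0.0701), nor was it under median centring (adjusted p = 0.0772) or when all genes entered the fit (adjusted p = 0.058). The call with H2AZ siRNA was also lost without WT H2AZ siRNA replicate 1 or 3 or KO H2AZ siRNA replicate 2 (adjusted p of 0.0607 to 0.0794).

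In the DAC table Gas5 had 4.81, 5.79 and 5.40 FPKM in KO DAC, 4.84 and 6.49 FPKM in KO DMSO, 5.70, 6.51 and 4.17 FPKM in WT DAC and 5.70 and 5.74 FPKM in WT DMSO, and all groups overlapped. H2AZ siRNA over NT siRNA gave 0.12 in KO and 0.03 in WT, neither called. Without KO NT siRNA replicate 1 the difference in KO was 0.25 (adjusted p = 0.0375). The annotated span of Gas5 overlaps those of other genes, among them Zbtb37 and several small nucleolar RNAs. The strand setting of the counting is not given in the sources used here, so reads of overlapping genes may be mixed.

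Of 13 other host genes of small nucleolar RNAs tested, 1 was called higher and 6 lower in KO over WT with NT siRNA (3 and 5 with the members out of the total) and 1 higher and 4 lower with H2AZ siRNA (2 and 3). Over all genes, with the deposited total, 23.7% were called higher and 40.4% lower with NT siRNA, and 20.2% and 42.7% with H2AZ siRNA. With the members out of the total, 3917 of 12668 genes were higher and 4154 lower with NT siRNA, and 3625 and 4249 with H2AZ siRNA. Snhg5 had 10.4 RPKM in KO NT siRNA and 17.7 RPKM in WT NT siRNA (log2 fold change -0.74, adjusted p = 0.000267). Snhg9 had 8.55 RPKM in KO NT siRNA and 4.35 RPKM in WT NT siRNA (log2 fold change 0.85, adjusted p = 0.00585). With H2AZ siRNA over NT siRNA, 7 rose and 1 fell in KO (median 0.18, all genes -0.06), where 6.56% of all genes rose and 19.0% fell. In WT 4 rose and 1 fell (median 0.14, all genes -0.03), where 4.88% of all genes rose and 10.4% fell. Snhg15 was among those that rose in KO, with 7.02 RPKM in KO H2AZ siRNA and 5.06 RPKM in KO NT siRNA (log2 fold change 0.41, adjusted p = 0.00199). It also rose with DAC, to 6.83 FPKM in KO DAC, against 2.61 FPKM in KO DMSO (log2 fold change 1.10, adjusted p = 0.000526).

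RNA polymerase III and its factors make several of the short members, but not Terc. Of 28 of their genes tested in KO over WT of the siRNA table, 4 were called higher and 16 lower with NT siRNA (median -0.28, all genes -0.10), and 2 higher and 15 lower with H2AZ siRNA (median -0.25, all genes -0.12). Of all genes 40.4% and 42.7% were called lower, and 23.7% and 20.2% higher, in these comparisons. With the members out of the total the counts were 6 and 14 with NT siRNA and 5 and 14 with H2AZ siRNA. Of all 12668 genes, 3917 were then higher and 4154 lower with NT siRNA, and 3625 and 4249 with H2AZ siRNA. Ssb, the La protein that binds the ends of new polymerase III transcripts, had 29.8 RPKM in KO NT siRNA and 84.5 RPKM in WT NT siRNA (log2 fold change -1.52, adjusted p = 2.84e-05). Bdp1, a part of the initiation factor TFIIIB, had 2.39 RPKM in KO NT siRNA and 5.45 RPKM in WT NT siRNA (log2 fold change -0.93, adjusted p = 4.91e-05). Maf1, a repressor of polymerase III, was higher, at 25.97 RPKM in KO NT siRNA and 12.4 RPKM in WT NT siRNA (log2 fold change 1.01, adjusted p = 4.14e-08), and fell with H2AZ siRNA in KO to 17.8 RPKM (log2 fold change -0.52, adjusted p = 0.000108). Among the DAC libraries, KO over WT called 2 of 28 higher (19.6% of all genes) and 4 lower (22.9%) in DMSO, and 2 lower in DAC (11.6%).

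Of the other noncoding RNAs made by polymerase III or without a poly(A) tail, 9 were tested in the siRNA table. In KO over WT 6 were higher with NT siRNA (median 0.36; 23.7% of all genes), and 4 were higher and 1 lower with H2AZ siRNA (median 0.34; 20.2% and 42.7% of all genes). Rnu12, the U12 RNA of the minor spliceosome, had 117 RPKM in KO NT siRNA and 72.8 RPKM in WT NT siRNA (log2 fold change 0.67, adjusted p = 0.000435). Scarna2, a guide RNA of Cajal bodies, had 253 RPKM in KO NT siRNA and 176 RPKM in WT NT siRNA (log2 fold change 0.52, adjusted p = 2.84e-05). Of 8 tested in the DAC table, 1 was higher in KO DMSO than in WT DMSO (19.6% of all genes) and 2 were lower in KO DAC than in WT DAC (11.6%). The mitochondrial ribosomal RNA mt-Rnr2 was lower in KO than in WT with NT siRNA, at 6231 RPKM in KO NT siRNA and 7600.1 RPKM in WT NT siRNA (log2 fold change -0.30, adjusted p = 0.0221), a call lost with the members out of the total.

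Some of the nearest annotated genes changed in the same direction as the members and others did not. Over all genes 23.7% were called higher and 40.4% lower in KO over WT with NT siRNA. The median there was -0.31 on chromosome 14 (Parp2), -0.19 on chromosome 12 (Nemf, Rps29 and Lrr1), -0.19 on chromosome 4 (Ccdc107) and -0.18 on chromosome 1 (Cenpl), against -0.10 for all genes. In DMSO it was 0.07 on chromosome 19 (Frmd8), against -0.04 for all genes. A local link to a member was not tested. Parp2, 125 bases from Rpph1, was lower in KO over WT with NT siRNA (log2 fold change -0.56, adjusted p = 3.59e-05), where Rpph1 was not. Ccdc107, 280 bases from Rmrp, was lower (log2 fold change -0.28, adjusted p = 0.00159), where Rmrp was higher. Nemf, 3981 bases from Rn7s2, was lower (log2 fold change -1.48, adjusted p = 1.7e-05), where the 7SL genes were higher. Next to Rn7s1, the ribosomal protein gene Rps29, 108 bases away, was not called with NT siRNA (log2 fold change 0.11, adjusted p = 0.101) and was higher in KO with H2AZ siRNA (log2 fold change 0.22, adjusted p = 0.00555), and Lrr1, 9220 bases away on the other side, was lower with NT siRNA (log2 fold change -0.50, adjusted p = 0.00214). Frmd8, 5493 bases from Neat1, was higher in KO in DMSO (log2 fold change 0.58, adjusted p = 0.00693), as Neat1 was, and rose with DAC in WT (log2 fold change 0.42, adjusted p = 0.0308), where Neat1 fell. C920006O11Rik, an RNA 280 bases from Rn7sk, was lower with DAC in KO (log2 fold change -0.46, adjusted p = 0.0237) and in WT (log2 fold change -0.46, adjusted p = 0.0337), where Rn7sk was not called. Cenpl, 32227 bases from Gas5, was lower in KO with NT siRNA (log2 fold change -0.39, adjusted p = 0.00099) and with H2AZ siRNA (log2 fold change -0.36, adjusted p = 0.00196), as Gas5 was.

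Across the libraries of a table, the named genes whose log2(value + 1) followed a member most closely are given as a description, with Pearson's r over libraries that fall into 4 groups. For Rn7sk over the 12 siRNA libraries they were Aldh18a1 (0.980), Dcakd (0.979) and Arhgdib (0.977), and for Rmrp Avpi1 (0.969), H2afx (0.968) and Id1 (0.964). For Malat1 they were Hmgxb4 (0.986), Ttbk2 (0.983) and Nsd1 (0.981), for Neat1 Map3k12 (0.966), Tmem216 (0.938) and Ebf3 (0.936) and for Gas5 Cdc73 (0.980), Naa15 (0.978) and Cul3 (0.976). Over the 10 DAC libraries they were Iah1 (0.928), Dlx1as (0.921) and Il1r1 (0.910) for Rn7sk, C1ra (0.993), Ptpn13 (0.993) and Mbtps1 (0.992) for Malat1, Atn1 (0.971), Nckap5l (0.964) and Meox2 (0.960) for Neat1 and Surf6 (0.916), Sun1 (0.903) and Tmem186 (0.896) for Gas5. No gene was among the closest for the same member in both tables.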

How the data were processed

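Total RNA of mouse embryonic fibroblasts was purified with a Direct-zol kit and sequenced as TruSeq Stranded Total RNA libraries, per the labels' protocols. The authors deposited a table of FPKM (10 DAC libraries) and a table of RPKM (12 siRNA libraries); STAR and mm10 are named in the submitters' processing notes, while the counter, the strand setting and the treatment of reads that fit several places were not stated there. Whole reads were recovered from the steps of the values. For each gene the search took the smallest length that made its reads whole in every library, to within about 0.01 of a read. Such a length was found for all 35023 genes above 0, and the limit of 0.01 was a condition of the search. Genes at 1 or more in at least 2 (DAC) or 3 (siRNA) libraries were fitted, 4 groups together, with limma 3.58.1 (R 4.3.3, abundance trend) on log2(value + 1), and p-values were adjusted by Benjamini-Hochberg over all 16435 or 12668 genes; the fit was tested on simulated data. The members and lists were chosen with earlier results of these data known. Genes named beside the members are the 2 called genes with the largest rise and fall of each list, the nearest annotated genes, and the 3 genes of highest Pearson correlation. Not every neighbouring gene is reported here. Same-numbered H2AZ and NT siRNA libraries deviated together in KO (correlations of 0.156, 0.144 and 0.270). The numbers were taken as pairs there, from the data and not from a label. A replicate block changed no call of a member in that comparison. Over all genes 1019 were called higher and 2692 lower with the block, and 831 and 2404 without it. KO and WT libraries of the same number also deviated together with NT siRNA (0.319, 0.109 and 0.0234) and with H2AZ siRNA (0.0452, 0.0370 and 0.0739). With the block 3040 genes were called higher and 5316 lower in KO over WT with NT siRNA, against 3004 and 5122 without it. The main calls are from the fit without the block. Tables were made with Python 3.11.15, numpy 2.4.6, pandas 2.3.3 and matplotlib 3.10.9. The alternatives were another pseudocount, no filter, median centring, a total without the members, the block, limma-voom on the reads and leaving out libraries.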

Additional observations from a re-analysis of the deposited data

How the results depend on the processing

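Of 89 member differences, 16 were called. With a pseudocount of 0.1 every member kept its direction where called and its side of the threshold. The number of members called was 2 in KO over WT in DMSO with limma-voom on the recovered reads and without the pair of libraries farthest from their groups, and 1 in the difference between DAC effects with limma-voom, without the abundance trend and without those libraries, in place of 1 and 0. Without the filter on low values it was 1 in KO over WT with H2AZ siRNA and 0 for H2AZ siRNA over NT siRNA in KO, where it was also 0 with the members out of the total and 2 without such a pair, in place of 4 and 1. The replicate block gave 1 in DAC over DMSO in KO and 1 in WT, in place of 2 each, and changed no other count. Same-numbered H2AZ and NT siRNA libraries of KO deviated together, and so did KO and WT libraries with NT siRNA, most in replicate 1 (correlation of 0.319). What libraries of the same number share is not given in the labels. Leaving out single libraries gave 1 to 2 members called in KO over WT in DMSO, 1 to 2 in DAC over DMSO in KO, 1 to 2 in WT, 2 to 4 in KO over WT with H2AZ siRNA, 0 to 2 for H2AZ siRNA over NT siRNA in KO and 0 to 1 in WT, and turned no called difference round; where 1 of 2 DMSO libraries was left out, the lone library is taken to vary as the other groups do. Single members also crossed the threshold in other comparisons. In KO over WT with NT siRNA Malat1 lost its call without WT NT siRNA replicate 1, and Rn7sk lost its call without the filter. Neat1 gained a call there without KO NT siRNA replicate 2 and with median centring. Rpph1 gained a call in KO over WT in DAC without WT DAC replicate 3. Rn7sk gained a call in DAC over DMSO in KO with limma-voom and without the trend. The settings without trend and without those pairs were chosen after seeing the data. With lengths from RefSeq the members held 5.02% of the DAC total (5.01% as recovered) and 21.2% of the siRNA total. The cause was not tested where a count moved. In the DAC table Rmrp had too few reads to test, Terc rests on 42 to 146 reads, and p-values rest on 2 or 3 libraries a group. Over all siRNA genes, median centring evens the split of calls by construction. It called 4028 higher and 4127 lower in KO over WT with NT siRNA (3004 and 5122 as deposited) and 4037 and 3924 with H2AZ siRNA (2563 and 5409). For H2AZ siRNA over NT siRNA it called 1709 and 1686 in KO (831 and 2404) and 1063 and 1184 in WT (618 and 1315). On the recovered reads limma-voom called 7082 genes in KO over WT in DMSO, 4279 in DAC, 8161 with NT siRNA and 7930 with H2AZ siRNA, 7650 and 5111 for DAC over DMSO in KO and WT, and 3391 and 2012 for H2AZ siRNA over NT siRNA in KO and WT.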
